A study of Drosophila melanogaster with 20 samples.

Results

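The mitochondrial ribosomal protein genes of Drosophila melanogaster were described in brain and fat body on 2 diets. They were taken as the genes whose symbol begins with mRpL or mRpS and a number, in all 20 deposited tables, and symbols listed in several rows were dropped. The rule gave 72 of 13972 genes, 46 named for the large subunit (mRpL) and 26 for the small subunit (mRpS). Subunits below follow the symbol, which was not checked against the place of each protein. The rule used symbols and no measured value. In the current annotation 12 of them lie on chromosome arm 2L, 12 on 2R, 17 on 3L, 20 on 3R and 11 on X. The genes tko and bonsai, which encode the small subunit proteins S12 and S15 of the same ribosome under other symbols, are described apart.

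Mitochondria make the few membrane proteins encoded by their own genome on their own ribosomes, which descend from a bacterial ribosome. The RNA of these ribosomes is transcribed in the organelle, whereas every protein of them is encoded in the nucleus, made in the cytosol and imported. The large subunit holds the peptidyl transferase centre, where the peptide bond forms, and the small subunit binds the mRNA and decodes it. In the fly, mutation of tko slows development and impairs respiration, and brain and fat body both depend on respiration, the former for neuronal activity and the latter for storing and releasing fat and sugar.

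The flies were wild-type females of the Oregon-R strain. All were listed as 5 days old and as having spent 5 days on their food, which was either normal (ND) or high in sugar (HSD). From each tissue 5 libraries of poly(A) RNA were made per diet, 4 groups in all. The fat body is the insect organ that combines roles of liver and adipose tissue. The labels do not say whether the libraries of a group came from separate flies or cohorts. The p-values therefore rest on a spread between libraries that may be technical. The values are RPKM, reads per kilobase of exon scaled to the mapped reads of the library, so levels of different genes can be compared per length.

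Depth recovered from the RPKM steps was 21.6 to 45.9 M reads in brain libraries and 5.4 to 38.5 M in fat body libraries. Of 10 neuron markers 9 were found, and their summed RPKM was 1750 to 2460 in brain libraries against 9.94 to 18.6 in fat body libraries. The 10 fat body markers summed to 40800 to 164000 in the fat body and 406 to 10100 in the brain, where ND library 5 was highest. Fat body libraries ND 4, ND 5 and HSD 4 stood apart: 322, 97 and 401 genes held 1 to 3 reads there, against at least 1066 in every other library. The counts and medians of the fat body comparisons are given with and without them.

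The members were moderately expressed on average, and their mean levels lay close together. Single fat body values were near the floor: mRpL33 at 1.12 RPKM in ND 4 and 0.563 in HSD 4, and mRpL54 at 0.909 in HSD 4. In the brain the mean RPKM over 10 libraries had a median of 27.4 over the 72 genes, with quartiles at 22.2 and 33.8, and 70 genes lay within 2-fold of that median. In the fat body the median was 21.1, with quartiles at 17.9 and 24.4, and 66 genes lay within 2-fold. For comparison, 43.0% of the 8910 genes with a mean of at least 1 RPKM in brain libraries and 46.6% of the 8223 in the fat body lay within 2-fold of their own median. In the brain 67 members, and in the fat body 69, were above the median gene, which had a mean of 18.7 and 12.9 RPKM. Genes with mRpL and mRpS symbols had similar median levels, 27.3 and 28.4 RPKM in brain, 21.1 and 20.6 in fat body.

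The medians of the 72 genes per library show how much the tissues and libraries varied. On normal food they were 28.1, 25, 25.6, 23.4 and 34.9 RPKM in brain libraries 1 to 5, and 13.4, 13.9, 18.5, 25 and 22 in fat body libraries 1 to 5. On high sugar they were 27.3, 25.3, 29.1, 27.3 and 28.1 in brain libraries and 18.7, 24.8, 23.3, 27.8 and 18.8 in fat body libraries. Brain libraries other than ND 5 lay close together, and fat body libraries of the 2 diets overlapped. Together the members took 0.202% ± 0.0275 (SD, n = 5) of the reads in brain ND, 0.204% ± 0.00953 in brain HSD, 0.134% ± 0.0348 in fat body ND and 0.166% ± 0.0251 in fat body HSD. The coefficient of variation of single members over the 10 libraries of a tissue had a median of 12.0% in the brain and 33.8% in the fat body. In bulk tissue, fewer cells of a type and less RNA per cell cannot be told apart.

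**Figure D1:**
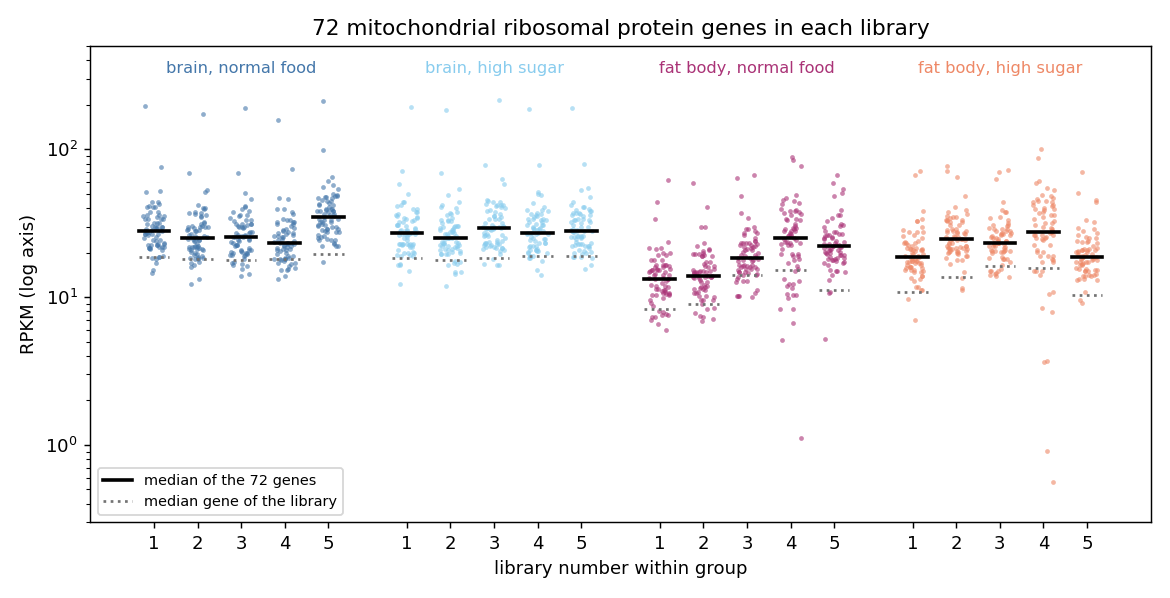
RPKM (log axis) of the 72 genes, 1 point per gene, in each of the 20 libraries; the solid line is their median and the dotted line is the library's median gene. The members' median lies above the median gene in every library, and the lowest points in fat body ND 4 and HSD 4 are mRpL33, with 2 reads in each.

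The highest member in the brain was mRpS5, the counterpart of a bacterial protein at the mRNA entry site of the small subunit. Its RPKM on normal food was 197, 172, 189, 158 and 211 in libraries 1 to 5, and on high sugar it was 192, 183, 214, 188 and 189. Every brain library had mRpS5 above all other members, whose next highest mean was 76.3. That next gene was mRpL53, whose RPKM was 76.4, 69.1, 68.9, 73.1 and 99.3 on normal food, but all of its exon bases overlap other genes in the current annotation (CG33155 on the same strand and AGO1 on the other), so its reads are uncertain. They were followed by mRpL55, at 53.6 ± 6.98 (SD, n = 5) on normal food, and by mRpL12, at 51.3 ± 6.16. Between these neighbours mRpL55 was higher in every normal food library but not in every high sugar library. Their difference was not tested. mRpL12 is the protein of the flexible stalk that recruits translation factors, present in several copies per bacterial ribosome. The lowest brain means were those of mRpL34, mRpS18B and mRpL11, at 15.1, 15.2 and 17.1 RPKM over the 10 libraries.

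The order was different in the fat body. The highest member there was mRpS9, the counterpart of a bacterial protein whose tail reaches the decoding site, with 61.9, 58.8, 66.8, 88.4 and 66.9 RPKM on normal food and 71.6, 76.5, 72.6, 87.7 and 70.5 on high sugar. It was the highest member in every fat body library except HSD 4, where mRpL53 stood at 100. Of its exon bases 25.1% overlap ArgRS-m on the other strand, and the strand use of the counting is not given in the sources used here. mRpL12 followed at 53.2 ± 22.6 on normal food (SD, n = 5) and mRpL28 at 47.5 ± 7. Which of the 2 was higher varied between libraries, and their difference was not tested. The lowest means over 10 libraries were those of mRpL54, mRpL11 and mRpL50, at 9.73, 10.5 and 11.9 RPKM. Over the 72 genes the Spearman rank correlation of the mean levels in the 2 tissues was 0.37, and 0.32 without mRpS5 and mRpS9, given as a description since all values share libraries and gene lengths.

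Among large subunit proteins placed towards the peptidyl transferase centre in bacteria, L2, L3, L4 and L16 had counterparts at middling levels. mRpL2 had 33.5 ± 5.79 RPKM in brain libraries and 17.8 ± 3 in the fat body on normal food, and mRpL3 had 27.2 ± 2.63 and 18.4 ± 3.77. mRpL4 had 29.0 ± 3.68 and 21.1 ± 9.96, and mRpL16 had 31.2 ± 4.24 and 20.8 ± 4.99 (SD, n = 5 each). These 4 genes thus lay near the members' median in both tissues. The stalk base proteins were not alike: mRpL10 had 26.5 ± 3.72 and 22.5 ± 10.5 RPKM, whereas mRpL11 was among the lowest of all, at 17.3 ± 2.85 and 10.9 ± 4.18. mRpL44, which has an RNase III-like fold in human, had 20.7 ± 2.57 RPKM in brain and 14.4 ± 3.65 in fat body.

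Among members with mRpS symbols, mRpS7 was comparatively high in both tissues, at 44.0 ± 6.79 RPKM in brain libraries and 30.3 ± 9.02 in the fat body on normal food. mRpS11, which lines the mRNA exit in bacteria, had 41.9 ± 4.86 in brain and 16.4 ± 7.22 in fat body. mRpS29, the counterpart of the human GTP-binding protein DAP3, was nearly equal in both, at 19.8 ± 2.16 and 19.4 ± 5.37. The S18 family, a single protein in bacteria, has 3 members in the fly, mRpS18A, mRpS18B and mRpS18C. Their brain means over 10 libraries were 31.2, 15.2 and 26.2 RPKM, and their fat body means were 18.3, 13.8 and 17.8. Members numbered as in bacteria (42 genes, L1 to L36 and S1 to S21) had median levels of 28.3 in the brain and 21.6 in the fat body. The 30 numbered above that had 24.2 and 20. Whether each of them has a bacterial counterpart was not checked.

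**Figure D2:**
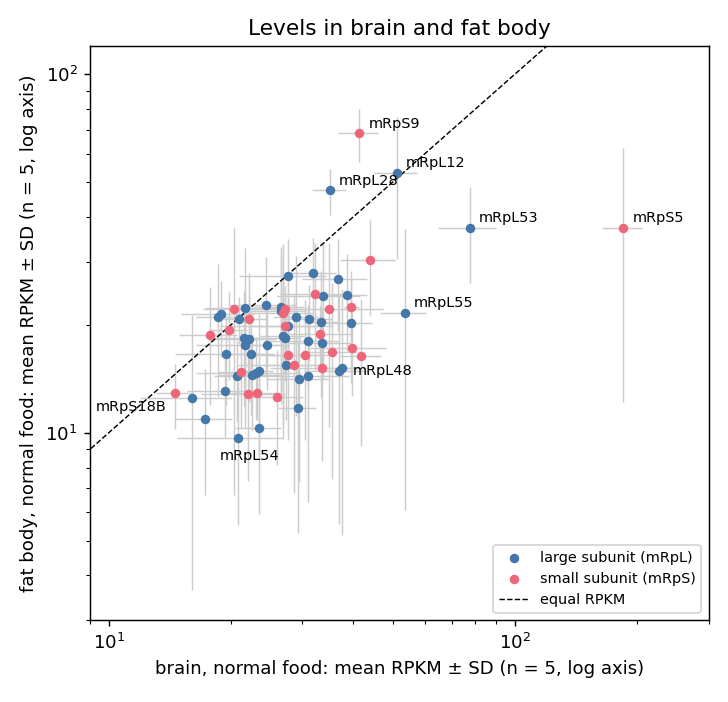
Mean RPKM ± SD (n = 5, log axes) of each member on normal food, brain on the horizontal axis and fat body on the vertical axis; the dashed line marks equal RPKM. Most members lie below the line, mRpS5 farthest to the right at 185 and 37.3, and mRpS9 and mRpL28 lie above it.

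Brain and fat body were then compared on each diet, first in deposited RPKM and then against each library's median gene. On normal food most members that passed the test were lower in the fat body in deposited RPKM: 40 of 72 fell and 2 rose relative to the brain. Across all 9219 genes tested, 51.6% fell and 23.2% rose, 74.8% in all, and the members' median difference of -0.56 in log2(RPKM + 1) was near that of all genes, -0.61. Relative to the median gene of each library, which moved the median of all genes to 0.21, 23 members rose and 4 fell, beside 42.6% and 32.2% of all genes, with a members' median of 0.26. Without fat body ND 4, ND 5 and HSD 4, 56 fell and 2 rose in deposited RPKM, 58 called in place of 42, where 7273 of 9186 genes were called. The members' median was then -0.77 and that of all genes -0.72. That set of libraries gave, against the median gene, 25 members higher and 16 lower, beside 4182 and 3151 of 9186 genes. Libraries 1 to 3 gave 28 higher and 16 lower, beside 4079 and 3094 of 9135 genes. The number of members lower thus varied with the libraries used. The direction of the list as a whole flipped with the scaling, and 6 of the genes called kept both call and direction under both.

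The 4 genes that were lower in the fat body on both scales, and also under median-ratio rescaling, quantile normalization and limma-voom on recovered reads, were mRpS5, mRpS11, mRpS25 and mRpL55. The 2 that were higher under all 5 were mRpS9 and mRpL28. For mRpS5 the fat body values on normal food were 17.9, 19.7, 23.9, 76.5 and 48.6 RPKM, all below the lowest brain value of 158. The mean was 185 ± 20.8 in the brain and 37.3 ± 25.1 in the fat body (SD, n = 5), a ratio of 4.97, and the fitted log2 difference was -2.50 ± 0.36 (SE; limma, adjusted p = 5.99e-05). Libraries ND 4 and ND 5 held the 2 highest fat body values. Without ND 4, ND 5 and HSD 4 the difference was -3.12. Relative to each library's median gene mRpS5 differed by -1.68, and by -2.19 without those 3 libraries.

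mRpL55 had 52.5, 52.9, 50.6, 46.6 and 65.2 RPKM in brain libraries and 10.4, 10, 14.6, 46.8 and 26.3 in the fat body on normal food. The groups overlapped only through fat body ND 4, the lowest-depth library, which exceeded brain ND 4. The log2 difference was -1.50 ± 0.37 (SE; limma, adjusted p = 0.00305), and -2.11 without ND 4, ND 5 and HSD 4. mRpL48 had 35.7, 36.1, 35.8, 33.5 and 47.2 RPKM in brain libraries and 7.36, 7.43, 10.2, 30.2 and 20.8 in the fat body. Its groups did not overlap and its log2 difference was -1.46 ± 0.35 (SE; limma, adjusted p = 0.00281). Of its exon bases 20.8% overlap other genes. Against the median gene its adjusted p was 0.0518, just over the threshold, and without those 3 libraries it passed, at -1.12.

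On the other side, mRpS9 had 40.6, 39.9, 39.5, 37.6 and 49.7 RPKM in the brain on normal food, all below every fat body value given above. Its log2 difference was 0.71 ± 0.13 (SE; limma, adjusted p = 5.81e-04), and 1.53 against the median gene. mRpL28, the counterpart of a bacterial large subunit protein, had 35.2, 36.8, 31.2, 32.3 and 39.4 RPKM in brain libraries and 43.8, 40.9, 48.6, 44.9 and 59 in the fat body, again without overlap. The difference was 0.42 ± 0.13 (SE; limma, adjusted p = 0.01), and 1.24 against the median gene. mRpL46 came next, with 18.8, 18, 17.2, 15.3 and 25.4 RPKM in brain libraries and 15.1, 19.7, 23.2, 28.9 and 20.2 in the fat body. These groups overlapped and the difference of 0.16 ± 0.18 did not pass the test (adjusted p = 0.446 by limma), whereas against the median gene it was 0.98 and passed.

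Non-overlap of all 5 libraries with all 5 was seen for 2 members above the brain, mRpL28 and mRpS9, and for 22 below, beside 19.3% and 44.5% of all genes. Members with mRpL symbols had a median difference of -0.54 and those with mRpS symbols of -0.75. The difference between these medians was not tested. Within libraries 1 to 3 the count of members called was 53, where 6856 of 9135 genes were called, and within libraries 4 and 5, with 2 a group, it was 1, mRpS5, where 4277 of 9269 were called. Against the median gene these counts were 44 and 10, where 7173 of 9135 and 4343 of 9269 genes were called. The summed markers of muscle and of ovary and eggshell were higher in the fat body than in the brain. In the fat body the 10 muscle markers summed to 268 to 671 RPKM on normal food and 395 to 673 on high sugar. Their sums in the brain were 9.50 to 95.7. The 15 ovary and eggshell markers summed to 311 to 12700 in the fat body on normal food and 30.3 to 1640 on high sugar. In the brain these sums were 4.17 to 7.60. The part of both marker sets in the members' differences was not tested.

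**Figure D3:**
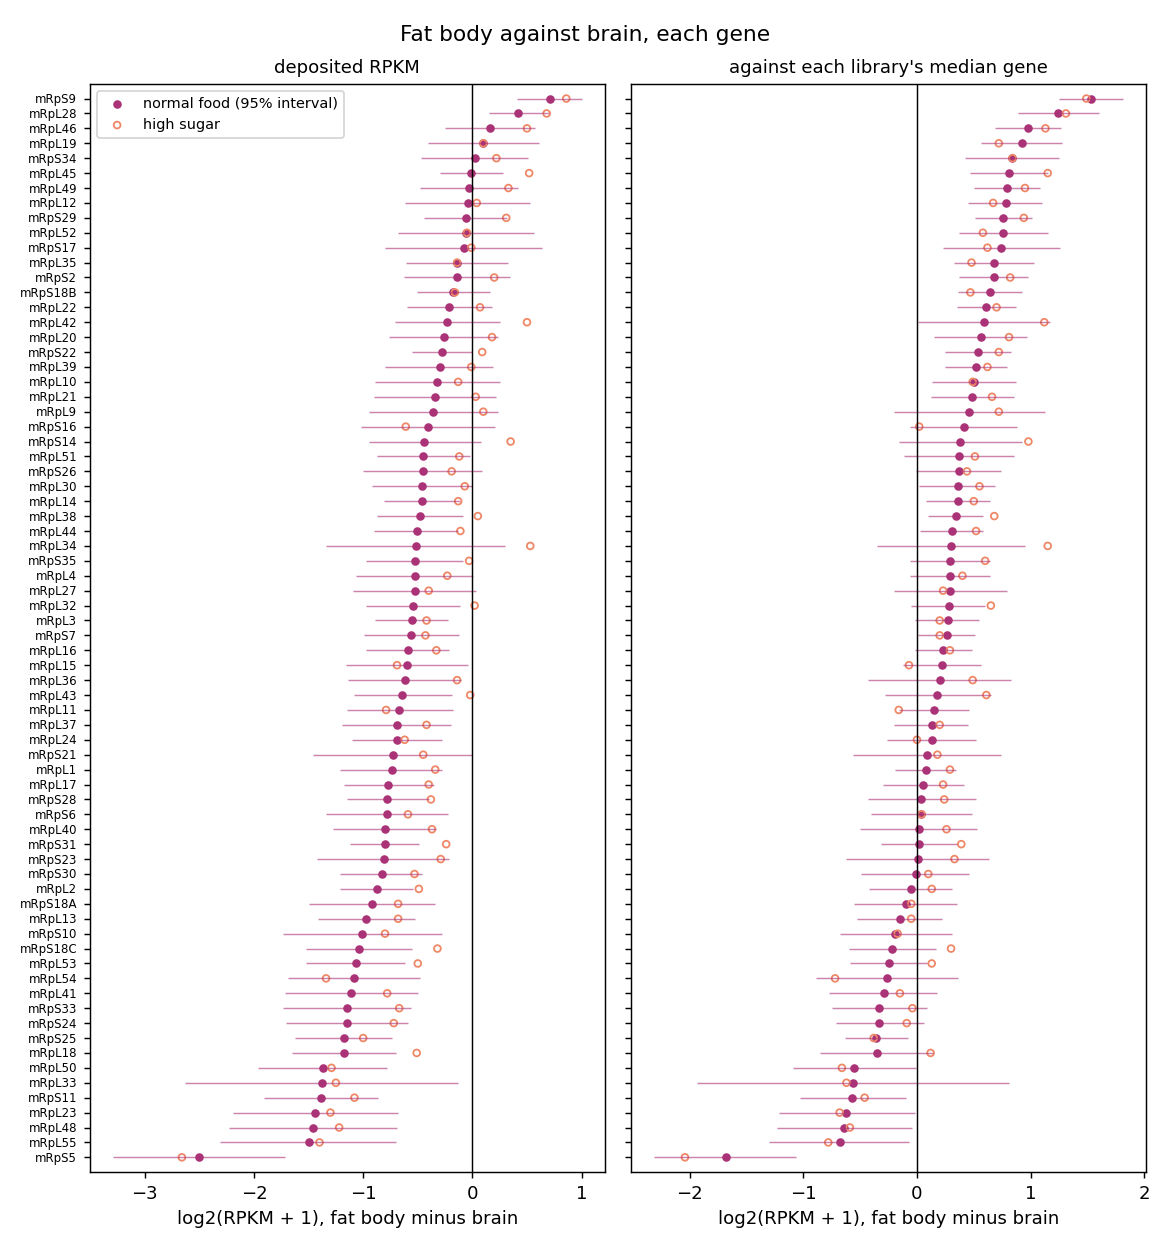
Difference of each member between fat body and brain in log2(RPKM + 1), in deposited RPKM (left) and against each library's median gene (right). Filled points with 95% intervals are normal food, open points high sugar; mRpS5 is lowest at -2.50 and mRpS9 highest at 0.71 on the left.

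On high sugar mRpS5 was again the lowest member relative to the brain and mRpS9 the highest. In deposited RPKM 26 members fell and 6 rose, beside 47.3% and 27.2% of 9315 genes, 74.4% in all. The members' median was -0.27 and that of all genes -0.40. Against the median gene 36 rose and 7 fell, beside 43.3% and 32.9% of all genes (76.2% in all), with medians of 0.36 and 0.23. The 6 that rose on both scales were mRpL28, mRpL42, mRpL45, mRpL46, mRpS9 and mRpS29, and the 7 that fell on both were mRpL23, mRpL48, mRpL50, mRpL55, mRpS5, mRpS11 and mRpS25. The same 13 genes also passed in that direction under median-ratio rescaling, quantile normalization and limma-voom on recovered reads. Without ND 4, ND 5 and HSD 4 the counts in deposited RPKM were 36 lower and 5 higher, beside 4686 and 2565 of 9315 genes. Against the median gene they were 42 higher and 7 lower, beside 4254 and 3200 of 9315 genes. In deposited RPKM the members' median was then -0.35 and that of all genes -0.45.

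mRpS5 had 32.5, 28, 19.8, 37.7 and 33.4 RPKM in the fat body on high sugar, again far below the brain, with a log2 difference of -2.66 ± 0.15 (SE; limma, adjusted p = 2.96e-08). For mRpL55 the fat body values of 15.3, 21.4, 20.4, 26.3 and 19.3 lay below all brain values of 57.8, 53.6, 62.6, 49.5 and 53, a difference of -1.40 ± 0.14 (adjusted p = 2.63e-06 by limma). mRpL54 had 20, 20.2, 21.2, 21.7 and 23.1 RPKM in brain libraries and 11.7, 11.6, 15.6, 0.909 and 9.07 in the fat body. Its groups did not overlap and the difference was -1.34 ± 0.50 (SE; limma, adjusted p = 0.03). Library HSD 4 was lowest by far, and without it the difference was -0.80.

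mRpS9 differed by 0.86 ± 0.09 (SE; limma, adjusted p = 6.15e-06), with brain values of 39.4, 37.1, 41.9, 43.6 and 44.2 RPKM on high sugar. mRpL28 had 35.5, 34.1, 33.6, 35.7 and 36 RPKM in brain libraries and 67.1, 64.8, 63.1, 48.8 and 43.7 in the fat body, a difference of 0.68 ± 0.13 (SE; limma, adjusted p = 5.50e-04). mRpL34 had 12.2, 11.9, 16.5, 14.1 and 16.6 RPKM in brain libraries and 16, 19.8, 18, 60.8 and 10.8 in the fat body. Its difference of 0.53 ± 0.37 did not pass (adjusted p = 0.218 by limma) and was 0.15 without library HSD 4. Members whose 5 libraries all lay above the brain were mRpL28, mRpL45 and mRpS9, and 18 lay wholly below, beside 22.5% and 42.1% of all genes.

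The diet was then compared within each tissue. In the fat body limma called 0 of the 72 members, and most lay somewhat higher on high sugar in deposited RPKM. Of the 72 genes 66 had a difference above 0, with a median of 0.31 in log2(RPKM + 1) and quartiles at 0.17 and 0.46. All genes shifted the same way, with 76.4% above 0 and a median of 0.19 over the 8223 tested, of which 0.0% were called. Against the median gene, which took the median of all genes to -0.02, the members' median was 0.10 and 49 were above 0. At an unadjusted p under 0.05 there were 11 members in deposited RPKM, all higher on high sugar, beside 9.55% of all genes, and 2 against the median gene, beside 3.20%. With the replicate number as a block, 17 members and 1099 genes had an unadjusted p under 0.05 in deposited RPKM, and 0 were called. limma-voom on recovered reads called 0 members and had 5 at an unadjusted p under 0.05.

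The precision was moderate. The 95% interval of a member's difference had a median half-width of 0.59, so a change of about that size in either direction could not be seen for a typical member. The smallest adjusted p of a member was 0.348, for mRpS14, whose bacterial counterpart sits in the head of the small subunit. It had 16.4, 20.4, 28.2, 12.8 and 21.5 RPKM on normal food and 27.4, 37.8, 38.8, 41.7 and 24.1 on high sugar, and the groups overlapped through 2 high sugar libraries. The log2 difference was 0.76 ± 0.23 (SE; limma). Of its exon bases 35.8% overlap other genes. mRpL18, the counterpart of a protein that binds 5S rRNA in bacteria, had 7.60, 7.76, 9.95, 8.29 and 17.9 RPKM on normal food and 11.2, 17.9, 14.5, 36 and 13.9 on high sugar, a log2 difference of 0.76 ± 0.32 (adjusted p = 0.507 by limma). Without HSD 4 that difference was 0.50.

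mRpL34, with 6.02, 11.6, 12.7, 27.2 and 5.17 RPKM on normal food and 16, 19.8, 18, 60.8 and 10.8 on high sugar, had the largest difference, 0.91 ± 0.48 (adjusted p = 0.559 by limma). Both groups had their highest value in library 4. Leaving out 1 library at a time, the difference ran from 0.53, without HSD 4, to 1.23, without ND 4. At the other end, mRpL54 differed by -0.20 ± 0.53 and had 7, 8.27, 12.9, 5.16 and 15 RPKM on normal food. mRpS16 had 14.7, 13.9, 16.0, 42.5 and 20.9 RPKM on normal food and 20.9, 33, 26.7, 3.66 and 20.2 on high sugar, a difference of -0.18 ± 0.50. mRpL11, of the stalk base, had 7.56, 7.37, 11.2, 17.7 and 10.8 on normal food and 11.1, 11.2, 15, 3.69 and 9.62 on high sugar, a difference of -0.14 ± 0.35. These 3 negative values came with a low value in HSD 4, and all 3 were positive without that library, at 0.35, 0.31 and 0.14. For mRpS31 all 5 high sugar libraries lay above all 5 on normal food, which 1.64% of all genes showed. It had 9.82, 13, 14.7, 12.2 and 14.8 RPKM on normal food and 15.2, 25.4, 18.1, 26.2 and 15.5 on high sugar, with an adjusted p of 0.449 by limma.

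The size of the shift depended on the libraries. Within libraries 1 to 3 all 72 members were higher on high sugar, with a median of 0.54, and 37 had an unadjusted p under 0.05, though none passed after adjustment. All genes moved with them: 1489 of 8187 had an unadjusted p under 0.05, 85.1% lay above 0 and their median was 0.33. The same libraries had 3 members and 444 genes under 0.05 against the median gene, with a members' median of 0.17. Within libraries 4 and 5 the median was -0.03 and 35 members were higher, beside a median of 0.00 and 50.1% above 0 over all genes. In 35 genes both sets were positive, and in 37 the signs differed. Without ND 4, ND 5 and HSD 4 the median was 0.47 with all 72 higher, beside 0.25 and 82.2% above 0 over all genes. In that fit 26 members and 1260 of 8208 genes had an unadjusted p under 0.05, and 0 were called. The members' median was 0.20 against the median gene, where 6 members and 413 of 8208 genes were under 0.05 unadjusted. The fat body markers summed to 67700 to 164000 RPKM on normal food and 40800 to 91300 on high sugar, with 10 of 10 markers found and 8 at a mean of at least 1. Of those 8, 6 had a difference below 0 on high sugar, with a median of -0.72. Among normal food libraries the members' median was lowest, 13.4, in ND 1, where that sum was highest, and highest, 25, in ND 4, where it was lowest. On high sugar the order was not the same, since HSD 1 had both the lowest sum, 40800, and the lowest members' median, 18.7. The ovary and eggshell markers, whose sums are given above, were below 0 in 15 of 15, with a median of -2.41, and the muscle markers above 0 in the 8 tested, with a median of 0.36. None of these markers was called by limma. The part of all these markers in the members' values was not tested.

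**Figure D4:**
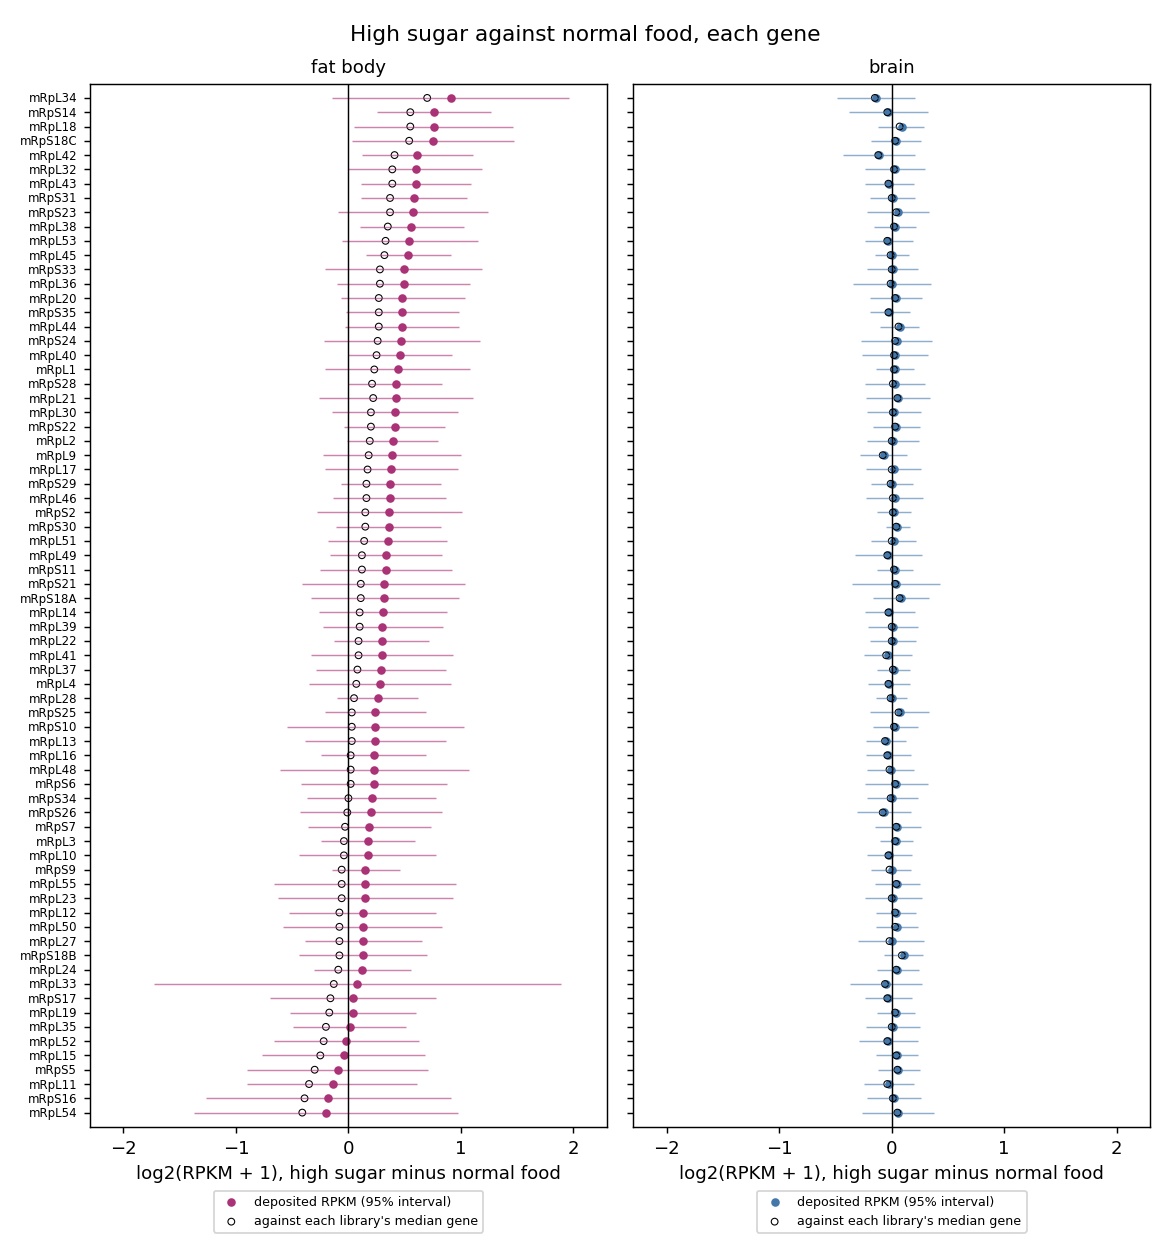
Difference of each member between high sugar and normal food in log2(RPKM + 1), in the fat body (left) and the brain (right), ordered by the fat body value. Filled points with 95% intervals are deposited RPKM and open points are against each library's median gene; the fat body points run from -0.20 to 0.91 and the brain points from -0.14 to 0.11.

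In the brain no diet difference of a member was detected, and the intervals were narrow. Of 72 genes 0 were called by limma, 0 had an unadjusted p under 0.05, and limma-voom gave 0 on both counts, while 0.887% of 8910 genes were under 0.05 unadjusted and 0.0% were called. The median difference was 0.02, as for all genes, and the range was -0.14 to 0.11. Every one of the 72 intervals lay within 0.5 of 0 on the log2 scale, and the median half-width was 0.22. The largest, mRpS18B, had 14.5, 13.3, 13.9, 13.9 and 17.2 RPKM on normal food and 15.1, 14.8, 18.2, 15.2 and 15.5 on high sugar, a difference of 0.11 ± 0.08. The next, mRpL18 and mRpS18A, differed by 0.09 ± 0.09 and 0.08 ± 0.11, and the lowest, mRpL34, mRpL42 and mRpL9, by -0.14 ± 0.16, -0.11 ± 0.14 and -0.07 ± 0.09 (SE each). No member had its 2 diet groups apart, beside 0.146% of all genes with high sugar above and 0.0112% below.

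One brain library set part of these values. In ND 5 the members' median was 34.9 RPKM, and its neuron markers were lowest, at 1750, and its fat body markers highest, at 10100. Without ND 5 the members' median difference was 0.10, 71 members were above 0 and 9 had an unadjusted p under 0.05, with none called. Over all genes 400 of 8875 were then under 0.05, 67.6% lay above 0 and the median was 0.04. The part of the markers in this was not tested.

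**Figure D5:**
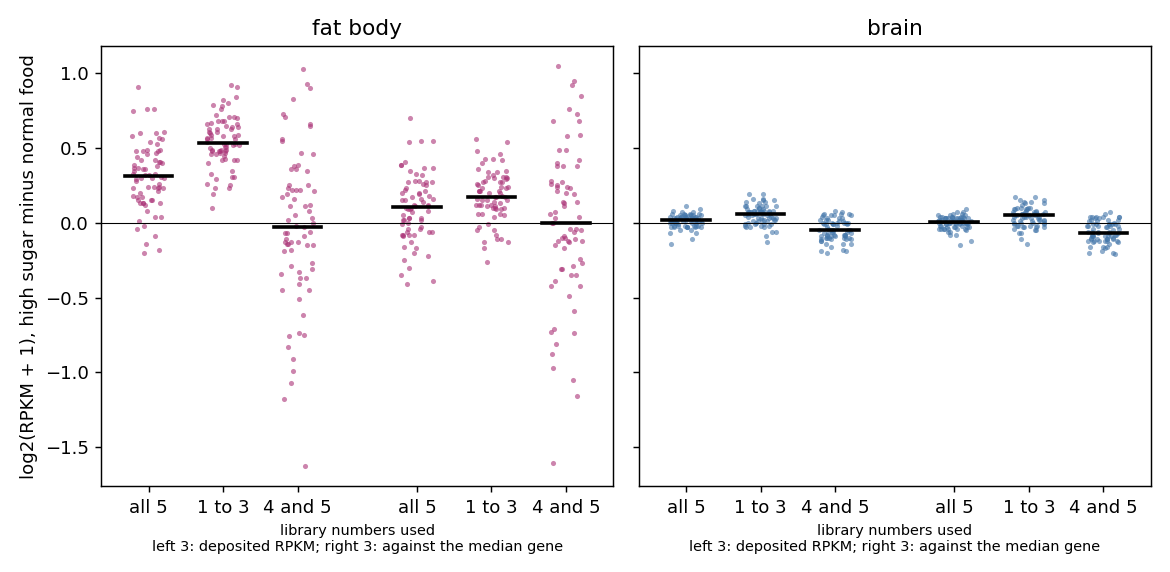
Diet difference of the 72 genes in log2(RPKM + 1), 1 point per gene and a line at the median, from all 5 libraries, from libraries 1 to 3 and from libraries 4 and 5, in deposited RPKM (left 3 columns of each panel) and against the median gene (right 3). In the fat body the median is 0.31, 0.54 and -0.03 on the left, and the points of libraries 4 and 5 are the widest.

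The difference of the diet effect between tissues was tested for each gene in a fit of all 20 libraries. Of 9280 genes 0 were called (0.0%), and 598 (6.44%) had an unadjusted p under 0.05. Of the members 0 were called, by limma and by limma-voom, and 7 had an unadjusted p under 0.05 with either tool. The members' median was 0.30, that of all genes 0.16, and against the median gene they were 0.11 and -0.03, with 2 members (1.92% of all genes) at an unadjusted p under 0.05. With the replicate block 12 members had an unadjusted p under 0.05 in deposited RPKM and 5 against the median gene, beside 1011 and 497 genes, with 0 called in both. From libraries 1 to 3 alone 277 genes and 1 member were called. That member was mRpS22, with an adjusted p of 0.0488 by limma, and it was picked out after its value was seen. Those libraries called 0 genes against the median gene, with a smallest adjusted p of a member of 0.998 and 1 member at an unadjusted p under 0.05. Without fat body ND 4, ND 5 and HSD 4, 23 genes and 0 members were called in deposited RPKM, and 4 and 0 against the median gene. The members' median in deposited RPKM was then 0.46 and that of all genes 0.21. An unadjusted p under 0.05 was seen for 34 members and 1446 of 9278 genes. The smallest adjusted p of a member was 0.0677 by limma. Against the median gene the medians were 0.21 and -0.04, with 11 members and 538 genes under 0.05 unadjusted.

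Members varied together across libraries of a tissue, more so in the brain. As a description, the Pearson correlation of 2 members' deviations from their group means over 10 libraries had a median of 0.83 in the brain over 2556 pairs, and 0.50 in the fat body. Over all pairs of genes it was 0.11 and 0.16, and over the genes of the cytosolic ribosome 0.98 and 0.55. Against the median gene the members' values were 0.73 and 0.25, and those of the cytosolic ribosome 0.97 and 0.85. All pairs share the same libraries, so ND 5 in the brain and ND 4 and HSD 4 in the fat body enter every value.

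Other genes of mitochondrial translation and respiration give the scale for these differences. In the fat body limma called no gene of these lists with diet, and 4, 2 and 1 genes of the first 3 had an unadjusted p under 0.05. The first list held translation factors together with transcription and RNA-binding genes such as TFAM, mtRNApol and bsf. Some of its 23 entries named the same gene. The median difference was 0.37 over its 19 genes found. It was 0.27 over 16 of 17 mitochondrial tRNA synthetases and 0.08 over 31 of 34 nuclear respiratory chain subunits. Of 84 cytosolic ribosomal protein genes tested, 0 were called, the median was 0.42 and 73 had an unadjusted p under 0.05. No gene of these 4 lists was called or had an unadjusted p under 0.05 against the median gene, where the medians were 0.17, 0.06, -0.13 and 0.21. EfTuM, the elongation factor that brings tRNA to the mitochondrial ribosome, had 60.8 ± 11 RPKM on normal food and 83.7 ± 13.6 on high sugar (SD, n = 5; adjusted p = 0.427 by limma). Between tissues on normal food 82 of 85 cytosolic ribosomal protein genes rose in the fat body and 2 fell, with a median of 1.73. Of the first list 12 of 19 genes fell, as did 11 of 16 tRNA synthetases and 12 of 31 respiratory chain subunits. In these 3 lists 1, 0 and 3 rose. With each library set to its median gene, 83 cytosolic ribosomal protein genes rose and 1 fell, whereas for the other 3 lists the balance turned: 9, 4 and 19 rose and 2, 0 and 2 fell. The shares over all genes, 51.6% lower and 23.2% higher in deposited RPKM and 32.2% and 42.6% against the median gene, shifted likewise. Mitochondrially encoded mRNAs were looked for by symbol, but none matched a gene kept here, so they were not analysed.

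The genes with other symbols were in the same range. tko had 38.2 ± 6.94 RPKM in brain libraries and 27.3 ± 14.8 in the fat body on normal food, a difference of -0.62 ± 0.33 that did not pass (adjusted p = 0.109 by limma). bonsai had 25.4 ± 2.39 and 28.5 ± 8.84, a difference of 0.11 ± 0.19 (adjusted p = 0.616 by limma). Both had their highest fat body values in HSD 4, at 74.4 and 65.4 RPKM.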

How the data were processed

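RNA sequencing libraries of poly(A) RNA from brain and fat body were taken as deposited, 20 libraries in 4 groups of 5. The deposited values are RPKM per gene from uniquely mapped reads, per the labels' protocols. Reads were aligned with TopHat to dm3, per the submitters' processing notes. Each table held 15080 rows, and 188 symbols in 1107 rows were left out. No pair of tables held identical values. Whole reads were recovered from the RPKM steps (99.95% of 222274 values above 0 were whole within 0.01 read). They gave the depth and the count model. The lowest read number of a member was 2.

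Comparisons were fitted in R 4.3.3 with limma 3.58.1 and its trend option (statmod 1.5.0 installed), on log2(RPKM + 1), for genes averaging at least 1 RPKM, with two-sided tests and Benjamini-Hochberg adjustment at 0.05. All 72 members passed this filter. Fold changes are on that scale, which understates changes of low genes. The fits were tested on simulated data in which genes varied independently. Members varied together here, so that test did not cover shared shifts of whole libraries. Against the median gene means after subtracting each library's median log2(RPKM + 1) over the genes in the fit. Members, lists and tests were chosen with earlier results of these data known. Named are the 3 highest and 3 lowest members per comparison, the 4 highest and 3 lowest levels per tissue, and 12 members fixed for their place in the ribosome. The grouping by number, the S18 family and any other member named were chosen after their values were seen. Alternatives were other scalings, a pseudocount of 0.1, no filter, limma-voom, a replicate block and left-out libraries. Overlaps and chromosome arms come from Ensembl release 115 (BDGP6), another build than dm3, so no coordinates are given. A planned promoter motif search was not run, and sequences were not used here.

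Same-numbered ND and HSD libraries deviated together from their group means, with correlations of 0.26, 0.15, 0.65, 0.23 and 0.13 in the fat body and 0.44, 0.58, 0.55, 0.30 and 0.66 in the brain. Same-numbered libraries were each other's closest match only for numbers 3 and 4 in the fat body and number 5 in the brain. The labels give no source for this pairing. Between tissues the correlations of same-numbered libraries ran from -0.23 to 0.15. No main fit used pairs, and the replicate block was run as an alternative in every comparison.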

Additional observations from a re-analysis of the deposited data

Results flagged for a closer look

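Values far from the other 4 libraries of their group, by a gap over 0.71 of the group's range, were looked for in 120 groups of 5, and 15 were found. Chance gives about 1 in 20 groups when values are independent, a rate that does not carry over here: most of the groups belong to the 28 named members, named in part for extreme values and measured in the same libraries. In the brain, 6 of them were in ND 5: mRpS14 at 41.7 RPKM (others 21.8 to 27.5), mRpL54 at 31.4 (17.1 to 19.6), mRpL42 at 27.7 (15.6 to 18.9), mRpS9 at 49.7 (37.6 to 40.6), mRpL48 at 47.2 (33.5 to 36.1) and mRpL53 at 99.3 (68.9 to 76.4). Another was mRpS18B in brain HSD 3, at 18.2 (14.8 to 15.5).

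In the fat body, HSD 4 held mRpL34 at 60.8 RPKM (others 10.8 to 19.8), mRpL18 at 36 (11.2 to 17.9), mRpL48 at 27.4 (12.8 to 13.7) and mRpL53 at 100 (38 to 50.8). Library ND 4 held mRpS16 at 42.5 (13.9 to 20.9) and mRpS9 at 88.4 (58.8 to 66.9), and ND 5 held mRpL18 at 17.9 (7.60 to 9.95). The members' median against the median gene was 0.49 on the log2 scale in fat body HSD 3, below the 0.72 to 0.81 of the other 4.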

How the results depend on the processing

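The replicate block left 0 members called in both diet comparisons and in the interaction, and gave 44 called between tissues on normal food (42 without it) and 30 on high sugar (32), so it moved no count of calls over 1.5 times. It did move members at an unadjusted p under 0.05, from 11 to 17 (diet, fat body) and from 7 to 12 (interaction), and against the median gene from 2 to 5 (interaction) and from 2 to 3 (diet, fat body). Leaving out 1 library at a time, the members' median difference ran from 0.21 to 0.41 (diet, fat body), -0.03 to 0.10 (diet, brain), -0.64 to -0.45 (tissue, normal food), -0.35 to -0.18 (tissue, high sugar) and 0.21 to 0.40 (interaction), with 0 called in the diet fits and the interaction, 35 to 52 and 26 to 41 between tissues. Libraries 4 and 5 alone gave -0.03 (diet, fat body) and an interaction of 0.00. Between tissues they called 1 and 11 members, where 4277 of 9269 and 4613 of 9336 genes were called. Libraries 1 to 3 called 1 member in the interaction. The tissue median changed with the scaling, for normal food and high sugar: 0.26 and 0.36 against the median gene (27 called on normal food), -0.10 and 0.00 by median ratios, and 0.21 and 0.34 by quantiles. Combinations with the median gene were added after seeing the data. They gave 0.17 and 0.31 with libraries 1 to 3, and 0.26 and 0.36 with the replicate block. Libraries 4 and 5 gave 0.33 and 0.49, with 10 and 18 members called and an interaction of 0.02. There 4343 of 9269 and 4768 of 9336 genes were called. The medians were 0.16 and 0.34 without fat body ND 4, ND 5 and HSD 4. On high sugar 49 members and 7454 of 9315 genes were then called. Single genes that changed sign were, for diet in the fat body, mRpL54 (0.35 without HSD 4, 0.45 in libraries 1 to 3, 0.34 without those 3 libraries; against the median gene 0.09 and 0.06), mRpS16 (0.08 by voom, 0.09 without ND 4, 0.31, 0.79, 0.70; 0.43 and 0.42) and mRpL11 (0.05 by voom, 0.04 without ND 4, 0.14, 0.48, 0.40; 0.11 and 0.12). In the brain they were mRpS18B (-0.01 and -0.03 in libraries 4 and 5), mRpS18A (-0.01 without ND 4), mRpL42 and mRpL9 (0.02 each without ND 5). Between tissues on normal food, mRpL55 and mRpL48 were at 0.05 and 0.04 in libraries 4 and 5 against the median gene. Leaving out 1 library at a time, the fat body values ran from -0.43 to 0.35 (mRpL54), -0.40 to 0.31 (mRpS16) and -0.30 to 0.14 (mRpL11), and the brain values from -0.01 to 0.17 (mRpS18A), -0.18 to 0.02 (mRpL42) and -0.11 to 0.02 (mRpL9). The causes were not tested. A library of 5.4 M reads and 2 reads for mRpL33 limit the lowest members.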
